A study of Mus musculus with 67 samples.

Results

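IFNb is interferon-beta, a type I interferon. It was added or left out of anti-CD3 cultures of CD4+ T cells from C57BL/6 mice with experimental autoimmune encephalomyelitis (EAE). Gene expression was compared here between libraries labelled with and without IFNb, with 2 kinds of bead averaged. The comparison took 12 of the 60 libraries of the series. The libraries were chosen by their labels alone: 6 libraries labelled IFNb, 3 of them with CtrlIg beads and 3 with anti-Btla beads, were set against 6 libraries with the same beads and no IFNb, again 3 and 3. In all 12 the T cells had been stimulated for 18 h with anti-CD3, an antibody that triggers the T cell receptor complex, carried on aldehyde sulfate latex beads together with a control immunoglobulin (CtrlIg) or an antibody to the inhibitory receptor Btla (anti-Btla). IFNb was soluble, and its dose was not given in the sources used here. The donors of all these cells had been immunized with a myelin oligodendrocyte glycoprotein peptide, which induces EAE, and CD4+ T cells were enriched from spleen and lymph nodes by removing other cells, so regulatory, effector and resting CD4+ T cells were sequenced together. A further 3 libraries of unstimulated EAE T cells gave the resting level. Libraries of each group were numbered 1 to 3 in the labels, and same-numbered libraries within a bead kind were read as 6 pairs. Nothing in the sources used here says whether numbers mark separate mice or cultures, so p-values measure the spread between these libraries, which may be partly technical. Per the methods, which speak of the study's experiments in general, the mice were young adults of both sexes. The labels add no age.

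Between 9920000 and 19800000 counts were assigned to a library with IFNb, against 9270000 to 15100000 without IFNb and 7490000 to 28800000 in unstimulated libraries. Levels are given as CPM, counts per 1000000 counts of a library after TMM scaling of the library totals, and changes as log2 of IFNb over no IFNb from the paired fit, with the standard error. The IL-2 receptor alpha chain gene Il2ra, which rises on activation, was raised in all 12 stimulated libraries. It had 1911 to 2715 CPM with IFNb and 1957 to 2692 CPM without, against 138 to 286 CPM in unstimulated cells. Il2ra alone does not show that activation was equal in other genes.

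Type I interferons bind a receptor of Ifnar1 and Ifnar2 chains, whose kinases Jak1 and Tyk2 phosphorylate Stat proteins. These join Irf9 to form ISGF3, a factor that binds the interferon-stimulated response element (ISRE) in promoters and turns on antiviral genes in almost every nucleated cell. Among the products are Ifit proteins that bind foreign RNA, the ubiquitin-like modifier Isg15, and the oligoadenylate synthases, which sense double-stranded RNA. IFNb is used to treat multiple sclerosis, the human disease that EAE models.

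The ISRE core searched for here was GAAANNGAA, or TTCNNTTTC on the other strand, in windows that run from 250 bases before to 50 bases after each gene's start in RefSeq annotation of GRCm38.p6. Promoters of Ifit1, Ifit3, Isg15 and Rsad2 are shown because these genes are textbook ISGF3 targets. Levels of Ifit1 and Isg15 and the fold of Rsad2 are given next. Tll1, a protease gene that rose with IFNb, was added because its window holds the core. The core stood in 9.24% of the windows of all tested genes, and what part the match plays in the rise of Tll1 was not tested. Capitals mark matches to the core, some of which overlap. The windows are at chr19:34640760-34640833 (+) for Ifit1, chr19:34583354-34583402 (+) for Ifit3, chr4:156200856-156200916 (-) for Isg15, chr12:26456543-26456591 (-) for Rsad2 and chr8:64206184-64206232 (-) for Tll1.
Ifit1: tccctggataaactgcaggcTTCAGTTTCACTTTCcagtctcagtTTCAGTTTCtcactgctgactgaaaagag
Ifit3: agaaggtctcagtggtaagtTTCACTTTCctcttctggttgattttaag
Isg15: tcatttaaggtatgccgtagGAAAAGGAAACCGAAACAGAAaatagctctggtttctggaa
Rsad2: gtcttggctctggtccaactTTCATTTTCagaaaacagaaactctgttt
Tll1: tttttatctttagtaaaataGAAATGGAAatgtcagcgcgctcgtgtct

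Ifit1, Isg15, Usp18 and Rsad2, textbook interferon targets, did not pass the test. Ifit1, whose product binds viral RNA that lacks a host cap, had 19.8, 61.9 and 37.8 CPM in CtrlIg+IFNb libraries numbered 1, 2 and 3 and 22, 57.2 and 22.6 CPM in anti-Btla+IFNb libraries, against 13.9, 31.1 and 24.9 CPM with CtrlIg and 36.3, 51.0 and 17.4 CPM with anti-Btla alone. The groups overlapped throughout, and library number 2 was the highest in each of the 4 arms. The fitted fold was 1.23 (95% confidence interval 0.928 to 1.64, adjusted p = 0.503). Unstimulated EAE T cells had more Ifit1, at 91.2, 138 and 69.1 CPM. Isg15 had 11.9, 37.5 and 26.9 CPM with CtrlIg+IFNb and 10.1, 29.1 and 14.9 CPM with anti-Btla+IFNb, against 10.5, 21.9 and 19.5 CPM with CtrlIg and 19.3, 33.6 and 14.8 CPM with anti-Btla, a fold of 1.03 (0.808 to 1.32). The IFNb and no-IFNb values of Isg15 thus covered nearly the same range. Its conjugation regulator Usp18 had a fold of 1.09 (0.942 to 1.25) and the RNA-binding radical enzyme Rsad2 one of 1.38 (0.921 to 2.08).

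The same held for genes closer to the receptor. Stat2, a subunit of ISGF3, had 133, 189 and 211 CPM with CtrlIg+IFNb and 157, 245 and 180 CPM with anti-Btla+IFNb, against 98.8, 162 and 142 CPM with CtrlIg and 163, 234 and 133 CPM with anti-Btla. The groups overlapped, 5 of 6 pairs were higher with IFNb, and the fold of 1.21 (1.05 to 1.40) did not pass over all genes (adjusted p = 0.181). Irf7, the factor that amplifies interferon production, had a fold of 1.20 (0.971 to 1.48), and Oasl2, of the oligoadenylate synthase family, one of 1.28 (1.07 to 1.53, adjusted p = 0.165). The receptor genes Ifnar1 and Ifnar2 were expressed in all 12 libraries, at 114 to 155 CPM for Ifnar1 with IFNb and 103 to 155 CPM without. Their folds of 1.03 and 1.09, that of Jak1 at 1.08, that of the ISGF3 subunit Irf9 at 1.04 and that of the feedback inhibitor Socs1 at 0.871 did not pass. The strong induction of antiviral genes known for this cytokine therefore does not appear with the label, and "IFNb" below means the libraries labelled so. Why it is missing was not tested.

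**Figure D1:**
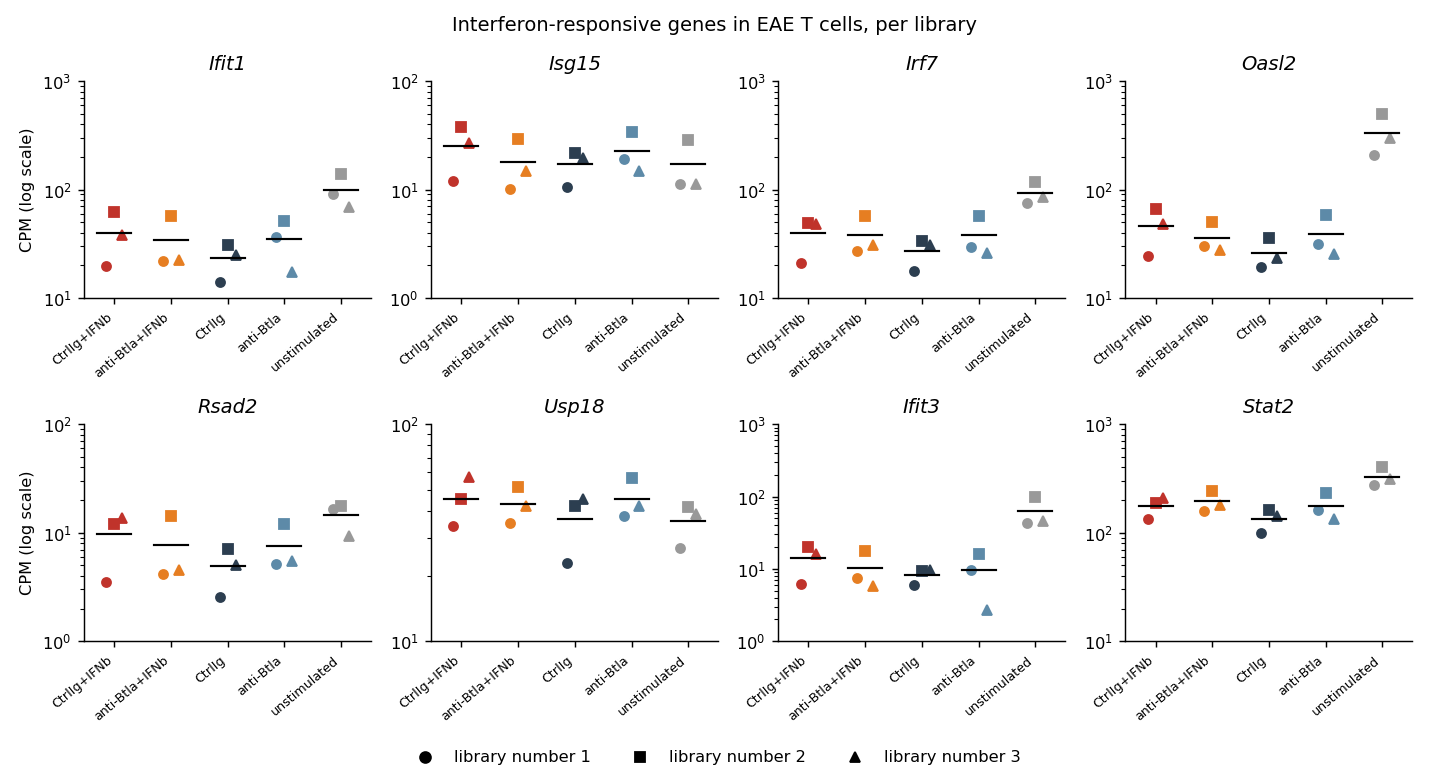
Levels of 8 interferon-stimulated genes in EAE T cells, in CPM on a log axis, with 1 point per library and the groups CtrlIg+IFNb, anti-Btla+IFNb, CtrlIg, anti-Btla and unstimulated. Points with and without IFNb overlap for all 8 genes, and none of the 8 passed the test.

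A list of 62 antiviral effector genes gave the same picture. Of the 60 with enough counts to test, 3 were higher and 0 lower at an adjusted p below 0.05 in edgeR's quasi-likelihood test, beside 114 higher (0.782%) and 209 lower (1.43%) among all 14572 genes tested. DESeq2 called 5 of the 60 higher and 0 lower, and at an unadjusted p below 0.05 edgeR had 16 higher and 1 lower. Changes were small and mostly of one sign: 54 of the 60 lay above no change, with a median of 0.16 on the log2 scale against 0.0034 for all genes. For 44 of the 45 effectors with a mean of at least 10 CPM, the confidence interval of the fold ended below 2. The mean log2 CPM over the list was 4.79 to 5.61 in IFNb libraries and 4.58 to 5.58 in libraries without IFNb, below the 5.79 to 6.30 of unstimulated cells. The share of promoters with the ISRE core was 55.1% in this list (27 of 49 with a window), 20.3% among genes called higher (14 of 69), 13.9% among genes called lower (21 of 151) and 9.24% among all tested genes with a window (966 of 10454). The gamma-activated sequence TTCNNNGAA, a site of Stat dimers, stood in 18.4% of the effectors' windows, in 10.1% of windows of genes called higher, in 5.96% of those called lower and in 8.62% of all.

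Xaf1, an apoptosis-associated gene, had 36.0, 66.1 and 63.2 CPM with CtrlIg+IFNb and 37.5, 77.2 and 51.4 CPM with anti-Btla+IFNb, against 24.8, 42.1 and 30.8 CPM with CtrlIg and 39.0, 65.5 and 28.7 CPM with anti-Btla. Its groups overlapped, 5 of 6 pairs were higher, and unstimulated cells had 113 to 165 CPM. Xaf1 rose by 0.53 ± 0.12 (adjusted p = 0.0309) and the membrane protein gene Ms4a4b by 0.31 ± 0.07 (adjusted p = 0.0273), but with each of the 12 libraries left out in turn they were called in 5 and 3 of 12 fits. Of all effectors tested by edgeR, 1 was called higher with no replicate block. Without all 4 libraries numbered 1 it was 1, without those numbered 2 also 1, and without those numbered 3 it was 0.

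Other interferon-linked lists held few called genes, all of them higher. Among all 14572 genes tested 0.782% were called higher and 1.43% lower, so 1 call in lists this small is already a larger share. Of 12 Ifi200 genes, whose products bind DNA, all 12 lay above no change with a median of 0.41, and 2 passed: Mndal (0.55 ± 0.11, adjusted p = 0.0143) and Ifi208 (0.52 ± 0.12, adjusted p = 0.0405). DESeq2 called 4 of them higher, 9 were higher at an unadjusted p below 0.05, and 7 were called in the 12 anti-CD3 libraries with a block of bead arm by number, against 0 with no replicate block and 0 without the libraries numbered 2 or 3. Mndal had 42.7, 66.9 and 61.7 CPM with CtrlIg+IFNb and 63.4, 79.2 and 59.3 CPM with anti-Btla+IFNb, against 26.7, 41.6 and 39.3 CPM with CtrlIg and 50.5, 58.5 and 39.7 CPM with anti-Btla. Its groups overlapped, all 6 pairs were higher, and unstimulated cells had 339 to 386 CPM. The double-stranded RNA sensor Ifih1 rose by 0.37 ± 0.09 (adjusted p = 0.0435), 1 of 14 sensors tested. Lgals3bp rose by 0.37 ± 0.07 (adjusted p = 0.0139), 1 of 16 genes of the Isg15 conjugation and ADP-ribosylation list. Gm4070 (0.33) was the 1 of 22 interferon-inducible GTPases to pass, and Slfn8 (0.25) the 1 of 8 Schlafen genes. Among 15 genes of interferon reception and feedback, Pias1, a SUMO ligase that restrains Stat signaling, rose by 0.23 ± 0.05 (adjusted p = 0.0373) with groups that did not overlap, and among 11 Irf genes Irf2, a repressor of interferon targets, rose by 0.26 ± 0.06 (adjusted p = 0.0413). Leaving out each library in turn kept the Mndal and Lgals3bp calls in 8 of 12 fits, Gm4070 in 5, Slfn8 in 4, Ifi208 and Ifih1 in 2, Pias1 in 1 and Irf2 in 0. Irf1, which drives MHC class I genes, was lower in 6 of 6 pairs by 0.19 without passing (adjusted p = 0.0744). None of 24 MHC class I and peptide-loading genes passed (edgeR, with 3 higher and 5 lower at an unadjusted p below 0.05; DESeq2 called 1 higher), nor any of 10 MHC class II genes (2 higher unadjusted, DESeq2 0), although 3 were called higher in the 12 anti-CD3 libraries alone and 1 there with a block of bead arm by number.

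The mitochondrial genome, a small circle transcribed within mitochondria, encodes 13 proteins of the respiratory chain and ATP synthase. Its transcripts had the largest median change of the gene lists, though its size varied between pairs. They made up 5.85, 5.71 and 7.40% of counts in CtrlIg+IFNb libraries and 6.57, 7.59 and 10.2% in anti-Btla+IFNb libraries, against 1.27, 2.81 and 2.11% with CtrlIg and 3.89, 3.76 and 2.96% with anti-Btla. The groups did not overlap, and the lowest IFNb library stood above the highest library without IFNb. Means were 7.23 ± 1.66% with IFNb and 2.80 ± 0.995% without (SD, n = 6 each), a paired difference of 4.43 ± 1.71 percentage points that had the same sign in 6 of 6 pairs. An exact two-sided permutation test by sign flips over the 6 pairs gave p = 0.03125, the smallest it can give. The test takes the pairs as independent, whereas same-numbered libraries of the 2 bead kinds mostly deviated together. Unstimulated EAE T cells had 5.30, 5.28 and 7.00%, close to the IFNb libraries and above all 6 libraries without IFNb. In bulk RNA a change in mitochondria per cell, in RNA per mitochondrion or in the other RNA of the cell cannot be told apart.

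**Figure D2:**
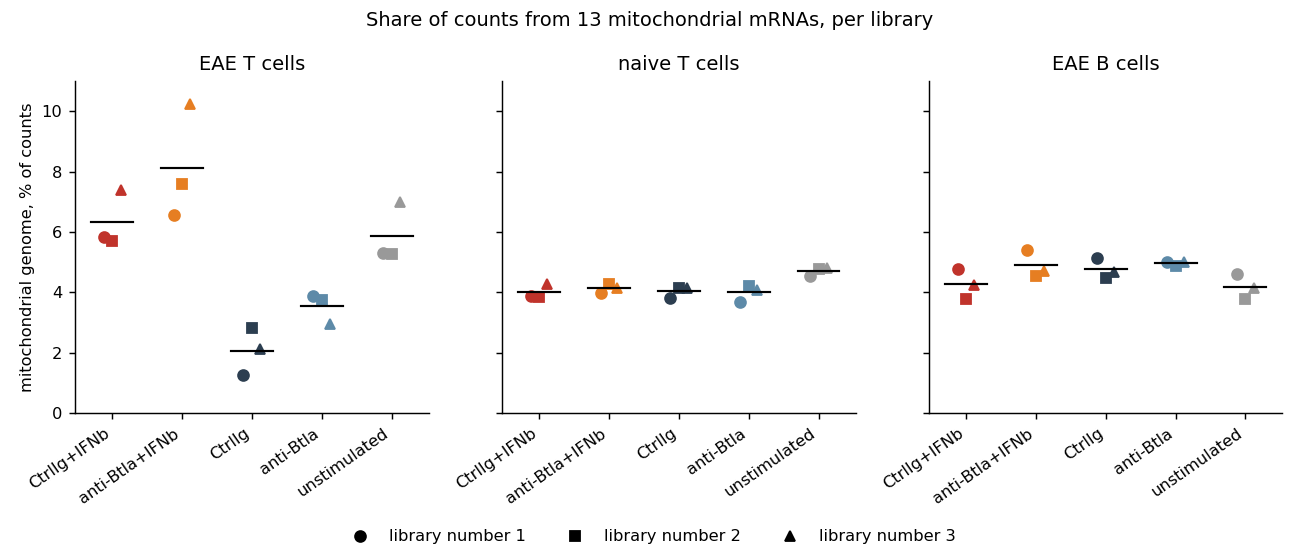
Percent of counts from the 13 mitochondrial protein-coding genes in each library of EAE T, naive T and EAE B cells, with bars at group means and marker shapes for library numbers. In EAE T cells the IFNb libraries (5.71 to 10.2%) lie above the libraries without IFNb (1.27 to 3.89%), while in naive T and EAE B cells the groups overlap.

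All 13 mitochondrial mRNAs rose with IFNb, with folds of 1.67 to 3.17 (median 2.67), adjusted p of 3.22e-05 to 0.00134 and groups that did not overlap. Over all genes 84 (0.576%) had higher values in all 6 IFNb libraries than in any library without IFNb, and 92 (0.631%) had lower ones. The cytochrome c oxidase subunit gene mt-Co1 had 17950, 17940 and 24710 CPM with CtrlIg+IFNb and 22000, 25110 and 35340 CPM with anti-Btla+IFNb, against 3106, 7763 and 5387 CPM with CtrlIg and 11150, 10960 and 8104 CPM with anti-Btla. The lowest library of all was CtrlIg number 1 and the highest anti-Btla+IFNb number 3. Its fold was 3.17 (2.48 to 4.06, adjusted p = 7.67e-05). The complex III gene mt-Cytb (log2 1.62 ± 0.15) and the complex I genes mt-Nd4 (1.58 ± 0.15) and mt-Nd1 (1.52 ± 0.16) followed, and mt-Nd3, also of complex I, was the least changed (0.74 ± 0.10). mt-Nd6, the one of the 13 that is encoded on the other strand, rose by 1.22 ± 0.11 (adjusted p = 3.22e-05). Its reading frame overlaps mt-Nd5, and without strand information reads of the overlap cannot be assigned. All 13 were called in each of the 12 leave-one-out fits, and 9 were called without all 4 libraries numbered 3. On a per-length scale the shortest frame, mt-Atp8, alone averaged 283340 TPM (transcripts per 1000000 transcripts, a measure corrected for length) with IFNb and 160880 TPM without. The TPM of every other gene is divided by the same total, so genes with a small rise in CPM can stand level in TPM, as Il2rg did at 353 TPM with IFNb and 351 TPM without.

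Of 7 called nuclear genes that resemble mitochondrial ones, 6 rose and 1 fell. The following 60-base stretches (GRCm38) show how alike the copies are, with differing bases in capitals. Gm28661 at chr1:24615506-24615565 (-) and mt-Co2 at chrM:7013-7072 (+) are given first, then Gm29216 at chr1:24616129-24616188 (-) with mt-Co1 at chrM:6390-6449 (+), and Gm13340 at chr2:22589129-22589188 (-) with mt-Co1 at chrM:5787-5846 (+).
Gm28661: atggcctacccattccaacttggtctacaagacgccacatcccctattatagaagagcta
mt-Co2: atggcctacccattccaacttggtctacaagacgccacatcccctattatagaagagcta
Gm29216: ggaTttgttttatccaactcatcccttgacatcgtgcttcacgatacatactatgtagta
mt-Co1: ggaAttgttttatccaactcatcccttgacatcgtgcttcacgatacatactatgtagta
Gm13340: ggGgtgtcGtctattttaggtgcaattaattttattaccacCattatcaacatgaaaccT
mt-Co1: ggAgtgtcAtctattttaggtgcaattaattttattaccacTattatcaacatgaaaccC

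Gm28661 is identical to mt-Co2 over all 681 bases of its transcript. It was assigned 1331, 534 and 1773 CPM with CtrlIg+IFNb and 3281, 1556 and 3943 CPM with anti-Btla+IFNb, against 0, 44.5 and 41.9 CPM with CtrlIg and 140, 13.5 and 57.8 CPM with anti-Btla. The groups were far apart, with a log2 change of 5.28 ± 0.57 (adjusted p = 1.44e-04), but reads of Gm28661 and mt-Co2 cannot be told apart, so the split between them is uncertain. Gm28439, identical to the first 876 bases of mt-Nd4, had a log2 change of 1.86. Gm13340, at 97.6% identity to mt-Co1 with 37 mismatches in 1545 bases, rose by 1.77 ± 0.15, Gm13341, at 95.9% identity to mt-Co2, by 1.26 ± 0.26, and Gm43841, at 83.5% identity to mt-Cytb, by 2.93 (adjusted p = 0.00788). Gm20594 on chromosome 6 resembles the mitochondrial ribosomal RNA gene mt-Rnr2 (88.5% identity over 435 bases), which is not among the transcripts counted. It had 1977, 2607 and 4011 CPM with CtrlIg+IFNb and 2788, 3227 and 4927 CPM with anti-Btla+IFNb, against 575, 1130 and 951 CPM with CtrlIg and 1366, 1497 and 1355 CPM with anti-Btla, groups that did not overlap (log2 1.50 ± 0.13, adjusted p = 3.22e-05). The gene that fell was Gm29216, which differs from mt-Co1 by 1 base in 483 aligned and had 5.96 to 12.5 CPM with IFNb against 16.9 to 45.0 CPM without, also without overlap (log2 -1.54 ± 0.25, adjusted p = 0.00500). How counts are divided among such copies was not tested.

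Genes for cytosolic ribosomal proteins, the protein parts of the ribosome that translates nuclear messages, were lower with IFNb. These genes were gathered after their values had been seen. Of 83 tested, 53 were lower and 0 higher (DESeq2 63 lower and 0 higher; 69 lower and 0 higher at an unadjusted p below 0.05), 80 lay below no change, and 12 had groups that did not overlap. Over all genes tested 1.43% were called lower, and 0.631% were lower without overlap. The median of the ribosomal protein genes was -0.31 on the log2 scale, a level 19.5% lower. Rps21, of the small subunit, had 187, 215 and 140 CPM with CtrlIg+IFNb and 130, 185 and 147 CPM with anti-Btla+IFNb, against 241, 267 and 238 CPM with CtrlIg and 290, 253 and 243 CPM with anti-Btla. All IFNb libraries lay below all libraries without IFNb, and unstimulated cells were lower still at 100 to 123 CPM. It fell by 0.63 on the log2 scale (SE 0.08, adjusted p = 6.11e-04). Rps7, of the same subunit, had 468, 455 and 383 CPM with CtrlIg+IFNb and 358, 405 and 376 CPM with anti-Btla+IFNb, against 530, 560 and 514 CPM with CtrlIg and 574, 506 and 497 CPM with anti-Btla, again without overlap. It had a log2 change of -0.38 ± 0.05 (adjusted p = 0.00134). The large-subunit genes Rplp1 (-0.59 ± 0.08), Rpl41 (-0.55 ± 0.07), Rpl22l1 (-0.54 ± 0.08) and Rpl36a (-0.51 ± 0.07) fell too, Rpl22l1 without overlap. Ribosomal protein genes have many near-identical processed pseudogenes, and how counts are split with such copies is uncertain, as for Rps23-ps1 (88.7 to 388 CPM with IFNb against 378 to 446 CPM without, log2 -1.27 ± 0.25). With all libraries numbered 1 left out 5 genes of this list were called lower (median -0.28), without those numbered 3 it was 2 (median -0.26), without those numbered 2 it was 49 (median -0.41), with no replicate block 17 (median -0.30), and with mitochondrial genes left out of totals and test 51 (median -0.32).

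Genes called lower had short transcripts. Outside the mitochondrial genome their median transcript length was 817 bases, against 2274 bases for genes called higher and 2057 bases for all tested. When the nuclear genes were put in 5 classes of length, the median change was -0.06 in the shortest class (median 794 bases, 141 called lower and 18 higher) and then -0.01, 0.00, 0.02 and 0.04 (median 4601 bases, 10 lower and 27 higher). Ribosomal protein genes are short, with a median of 644 bases. Nuclear genes of 500 to 800 bases that encode no ribosomal protein had a median of -0.10 (853 genes, 35 lower and 4 higher), against -0.31 for the ribosomal protein genes. What part transcript length plays in the lower calls was not tested.

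**Figure D3:**
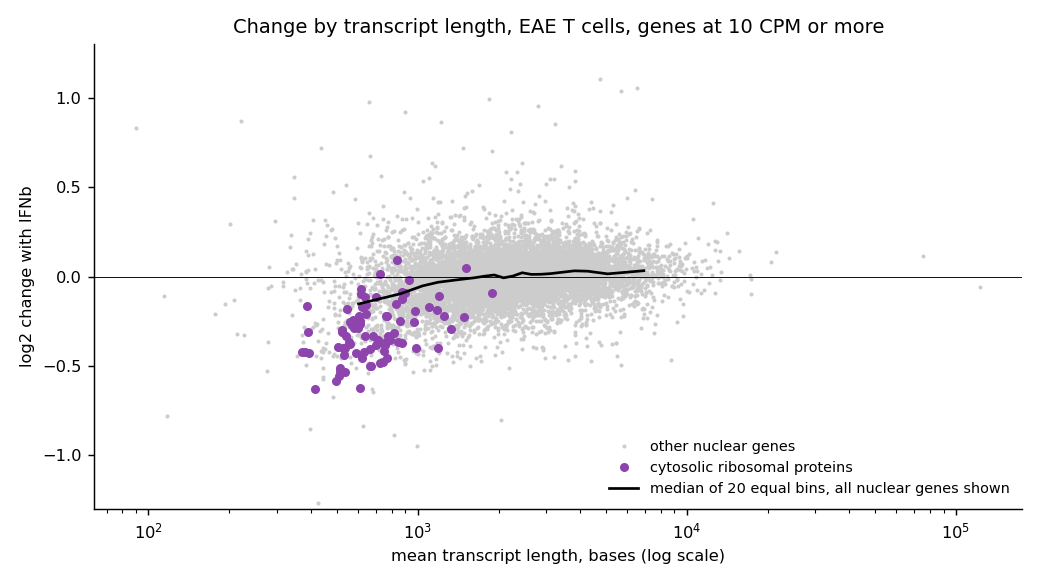
Log2 change with IFNb against transcript length for 8501 nuclear genes with at least 10 CPM, with the median in 20 bins of length and the 83 ribosomal protein genes marked. The ribosomal protein genes lie at the short end and mostly below the bin medians, and 8 genes fall outside the axis.

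In all, 323 of 14572 genes (2.22%) were called, 114 higher and 209 lower, and most changes were small. The median size was 0.37 on the log2 scale for genes called higher and 0.39 for genes called lower. Changes of at least 1 were seen in 28 higher and 5 lower genes, and 62 and 172 genes changed by less than 0.5. In 99 of the 114 and 188 of the 209 all 6 pairs moved the same way, and 43 and 59 had groups that did not overlap. The mean of unstimulated cells lay above the mean without IFNb for 98 of the 114 higher genes. For the 209 lower genes this held for 12. The mean without IFNb enters both the calls and these counts, so the counts are not independent of the calls. The same count over all genes was not made, and what part activation plays was not tested. Called in every one of the 12 leave-one-out fits were 41 higher genes, 13 of them mitochondrial, and 64 lower ones, 28 of them for ribosomal proteins. Without all 4 libraries numbered 3, only 17 higher and 6 lower calls were made, against 32 and 16 without those numbered 1 and 41 and 118 without those numbered 2.

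Outside the lists, large increases with the same pattern across libraries were found for Tll1, Olfr607 and Washc3. Tll1, a tolloid-like metalloprotease gene, had 19.7, 7.60 and 22.2 CPM with CtrlIg+IFNb and 18.9, 13.6 and 20.6 CPM with anti-Btla+IFNb, against 9.50, 5.35 and 8.25 CPM with CtrlIg and 6.92, 5.95 and 10.9 CPM with anti-Btla (log2 1.10 ± 0.14, adjusted p = 8.00e-04). CtrlIg+IFNb library 2 fell within the range without IFNb, and the other IFNb libraries lay above it. The odorant receptor gene Olfr607 (log2 1.04 ± 0.12) and Washc3 (0.81 ± 0.10), a subunit of the WASH complex that shapes endosomes, had their lowest IFNb value in that same library. Olfr607 reached 74.9 to 209 CPM with IFNb against 57.6 to 99.3 CPM without, and Washc3 reached 119 to 277 CPM against 85.9 to 148 CPM. Unstimulated cells had more of all of them, at 35.6 to 65.0 CPM for Tll1, 420 to 586 CPM for Olfr607 and 456 to 632 CPM for Washc3.

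Helper T cell genes changed little. The list counts in this and the next paragraphs stand beside 0.782% called higher and 1.43% called lower among all genes tested. Of 30 lineage factors 3 rose and 0 fell: Tox (0.38 ± 0.06, adjusted p = 0.00378), a chromatin factor of chronically stimulated T cells, Foxp3 (0.31 ± 0.06, adjusted p = 0.00899), the defining factor of regulatory T cells, and Tcf7 (0.26 ± 0.06, adjusted p = 0.0386), which marks resting and memory T cells. Foxp3 had 146, 209 and 218 CPM with CtrlIg+IFNb and 158, 217 and 191 CPM with anti-Btla+IFNb, against 102, 172 and 166 CPM with CtrlIg and 132, 175 and 174 CPM with anti-Btla. Library number 1 was the lowest in each arm, the groups overlapped, and all 6 pairs were higher. More Foxp3-expressing cells and more Foxp3 RNA per cell cannot be told apart in bulk samples. Tox and Foxp3 were called in all 12 leave-one-out fits and Tcf7 in 0. With no replicate block 0 lineage factors were called, and likewise 0 without all 4 libraries numbered 1, numbered 2 or numbered 3. Tbx21 (-0.05) and Gata3 (0.00), the factors of the Th1 and Th2 lineages, did not pass, nor did Bcl6 of follicular helper cells (0.29, adjusted p = 0.0690).

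Among 28 cytokine receptors Il2rg, the chain shared by the receptors for IL-2, IL-7, IL-15 and IL-21, was the 1 called. It had 548, 579 and 536 CPM with CtrlIg+IFNb and 622, 665 and 631 CPM with anti-Btla+IFNb, against 442, 459 and 463 CPM with CtrlIg and 533, 479 and 492 CPM with anti-Btla (0.32 ± 0.05, adjusted p = 0.00594). The groups did not overlap by a narrow margin, and the gene shares its strand with the overlapping Gm20489. Of 27 cytokine genes Il21, which helps germinal center B cells, fell (-0.32 ± 0.08, adjusted p = 0.0431, called in 1 of 12 leave-one-out fits). Ifng (-0.43, adjusted p = 0.323), Il17a (-0.50, adjusted p = 0.126), Il10 (0.19, adjusted p = 0.804) and Il2 (0.44, adjusted p = 0.279, higher in 6 of 6 pairs) did not pass. Ifng had 89.0 to 296 CPM with IFNb and 131 to 364 CPM without, with library number 2 the highest in each arm. None of 21 inhibitory receptors and ligands passed (edgeR, with 1 higher and 2 lower unadjusted, and DESeq2 0), among them Btla itself (-0.12 ± 0.06, adjusted p = 0.356, lower in 6 of 6 pairs). Its ligand gene Tnfrsf14 (0.09, adjusted p = 0.662), Hif1a (-0.04, adjusted p = 0.786) and Il6 (-0.19, adjusted p = 0.491) did not pass either. Of 11 genes the study named in T cells, 0 passed in edgeR and in DESeq2 (3 higher and 1 lower unadjusted).

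Of 27 early response genes of the antigen receptor, Egr1 (0.31 ± 0.06, adjusted p = 0.0107) and Egr3 (0.37 ± 0.09, adjusted p = 0.0487) rose, and the AP-1 gene Fosl2 (-0.39 ± 0.06, adjusted p = 0.00378) and the Erk phosphatase gene Dusp5 (-0.24 ± 0.06, adjusted p = 0.0383) fell. Egr1 had 280, 231 and 245 CPM with CtrlIg+IFNb and 237, 161 and 181 CPM with anti-Btla+IFNb, against 220, 181 and 199 CPM with CtrlIg and 185, 136 and 155 CPM with anti-Btla. The rise was seen in each pair, while libraries with anti-Btla beads were mostly lower than those with CtrlIg beads, so that the groups overlapped. Of 12 leave-one-out fits Fosl2 was called in 12, Egr1 in 10, Dusp5 in 1 and Egr3 in 0, and 1 gene of this list was called higher with mitochondrial genes left out. Foxp1 (0.24 ± 0.05, adjusted p = 0.0106, called in 11 of 12 leave-one-out fits), which keeps T cells quiescent, and Tcf7 were the 2 of 29 egress, homing and quiescence genes to rise, with 0 lower. Of 32 cytotoxic genes Srgn (-0.33 ± 0.07), the granule proteoglycan, and Gzma (-0.49 ± 0.12) were lower and 0 higher, called in 8 and 2 of 12 leave-one-out fits. The monocyte-attracting chemokine gene Ccl2 had 1.74, 22.7 and 6.33 CPM with CtrlIg+IFNb and 2.24, 22.6 and 8.94 CPM with anti-Btla+IFNb, against 3.30, 34.1 and 13.8 CPM with CtrlIg and 5.41, 36.3 and 19 CPM with anti-Btla. It fell in all 6 pairs (log2 -0.88 ± 0.11, adjusted p = 6.80e-04), although library number 2 held more than the others in every arm.

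Several lists of nuclear genes for respiration, division and synthesis held genes called lower and none called higher. Among all genes tested 1.43% were called lower and 0.782% higher. Of 40 nuclear genes of oxidative phosphorylation, whose proteins assemble with the 13 mitochondrial ones, 6 fell and 0 rose, 39 lay below no change, and the median was -0.19. Cox6c, a cytochrome c oxidase subunit, had 52.7 to 76.5 CPM with IFNb against 79.6 to 103 CPM without, with no overlap (-0.43 ± 0.08, adjusted p = 0.00949). Uqcrfs1 (-0.34) and Cox7b (-0.37) did not overlap either. Of 40 G1/S and DNA replication genes 5 fell and 0 rose (median -0.15), led by Rrm2, the regulated subunit of ribonucleotide reductase, at 31.3 to 41.1 CPM with IFNb against 43.0 to 55.4 CPM without (-0.44 ± 0.07, adjusted p = 0.00378). The sliding clamp gene Pcna was among them (-0.30 ± 0.06, adjusted p = 0.0215). Of 30 mitosis genes 2 fell (Tpx2, -0.40, and Plk4), of 29 sterol and fatty acid genes 4 (Hmgcs1, -0.29, Sc5d, Stard4 and Scd2) and of 21 unfolded protein response genes 2 (Sdf2l1, -0.39, and Canx), with 0 higher in each list. These 5 lists had 0 calls each without the libraries numbered 1 and without those numbered 3, and with no replicate block 0 calls but for 2 in the G1/S list. Of 12 leave-one-out fits Cox6c and Rrm2 were called in 12, Sc5d in 8, Uqcrfs1 in 7, Cox7b in 5, Pcna, Hmgcs1, Stard4 and Sdf2l1 in 4, Canx in 2, and Tpx2, Plk4 and Scd2 in 1. Glycolysis (22 genes, edgeR 0 called and 1 lower unadjusted), ribosome biogenesis and Myc targets (41 genes, 0 called, 3 higher and 3 lower unadjusted) and amino acid and one-carbon metabolism (36 genes, 0 called, 2 and 2 unadjusted) had medians of -0.08, 0.00 and 0.01, where DESeq2 called 0, 3 and 1.

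**Figure D4:**
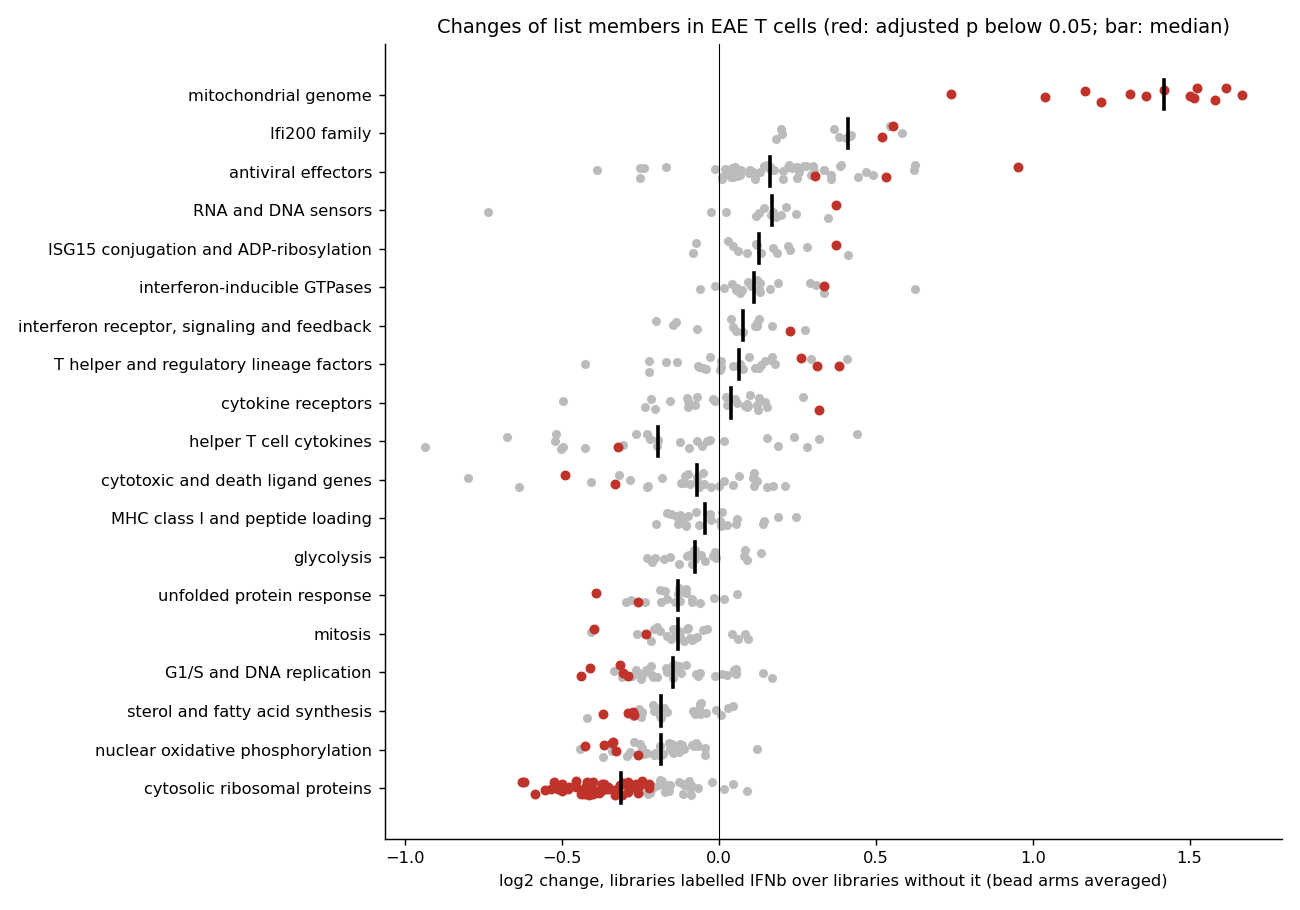
Log2 change with IFNb, bead kinds averaged, of each member of 19 gene lists, with genes called at an adjusted p below 0.05 in red and a bar at the list's median. The 13 mitochondrial genes stand at 0.74 to 1.67, ribosomal proteins have a median of -0.31, and antiviral effectors one of 0.16.

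The 2 bead arms differed in how many genes passed. With CtrlIg beads 23 genes (0.158%) rose and 0 fell by edgeR (1358 at an unadjusted p below 0.05, and DESeq2 called 118), and with anti-Btla beads 29 (0.199%) rose and 79 (0.542%) fell. The anti-Btla count fell to 0 without anti-Btla+IFNb library 1 or 3 or anti-Btla library 3, and to 20 without anti-Btla+IFNb library 2 or anti-Btla library 1. The difference between arms, tested directly, was called for 0 genes (0.0%; 567 at an unadjusted p below 0.05, and DESeq2 called 6). Mitochondrial mRNAs had medians of 1.68 with CtrlIg beads (12 of 13 called) and 1.20 with anti-Btla beads (10 called), and their differences ran from -0.69 to 0.19 (adjusted p = 0.993). Ribosomal protein genes had medians of -0.25 and -0.38. Antiviral effectors had medians of 0.29 with CtrlIg beads and 0.01 with anti-Btla beads, as Oasl2 shows: 24.5, 66.5 and 48.1 CPM with CtrlIg+IFNb against 19.4, 36.1 and 23.3 CPM with CtrlIg, and 30.2, 50.1 and 27.7 CPM with anti-Btla+IFNb against 31.8, 58.7 and 25.6 CPM with anti-Btla. The difference of the arms for Oasl2, -0.85 on the log2 scale, did not pass (adjusted p = 0.993).

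The same contrast was set beside the 12 matching libraries of naive T cells, from mice without immunization, and of EAE B cells, which were stimulated through the B cell receptor. In naive T cells IFNb changed 0 genes (0.0%; edgeR, 360 at an unadjusted p below 0.05) and in EAE B cells also 0 (0.0%; 467 unadjusted). The effect in EAE T cells differed from that in naive T cells for 200 of 15982 genes (1.25%), 88 of which (0.551% of those tested) were higher, including all 13 mitochondrial genes, and 112 (0.701%) lower, including 35 ribosomal protein genes. From EAE B cells it differed for 26 of 16523 genes (0.157%), all higher by edgeR and including the 13 mitochondrial genes, while DESeq2 called 85 higher and 27 lower and edgeR with library totals alone 21 higher and 70 lower. The mitochondrial share averaged 4.08% with IFNb and 4.02% without in naive T cells (exact permutation p = 0.5) and 4.58% and 4.88% in EAE B cells (exact permutation p = 0.156). mt-Co1 had 9876 to 11674 CPM with IFNb and 9172 to 11499 CPM without in naive T cells, and 9422 to 14481 CPM and 11651 to 14096 CPM in EAE B cells. Its difference of effects was 1.64 ± 0.18 (adjusted p = 9.36e-06) and 1.75 ± 0.19 (adjusted p = 1.13e-05) on the log2 scale. Rps21 differed from naive T cells by -0.65 ± 0.09 (adjusted p = 3.85e-04), where it had 213 to 243 CPM with IFNb and 206 to 245 CPM without.

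Smaller changes of the EAE T cells also stood apart from naive T cells: Washc3 (difference 0.82 ± 0.13, adjusted p = 8.57e-04), Tox (0.43 ± 0.08, adjusted p = 0.00310), Foxp3 (0.39 ± 0.07, adjusted p = 0.00784) and Il2rg (0.33 ± 0.06, adjusted p = 0.00213). Il2rg differed from EAE B cells as well (0.34 ± 0.07, adjusted p = 0.0287). Ifit1 did not pass in the other populations either, and had 27.5 to 56.4 CPM with IFNb and 22.4 to 84.9 CPM without in naive T cells, and 0.504 to 5.52 CPM and 0.977 to 8.56 CPM in EAE B cells. The difference of effects for Ifit1 was 0.25 ± 0.27 from naive T cells and 0.66 ± 0.31 from EAE B cells, with adjusted p = 0.786 and 0.539.

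**Figure D5:**
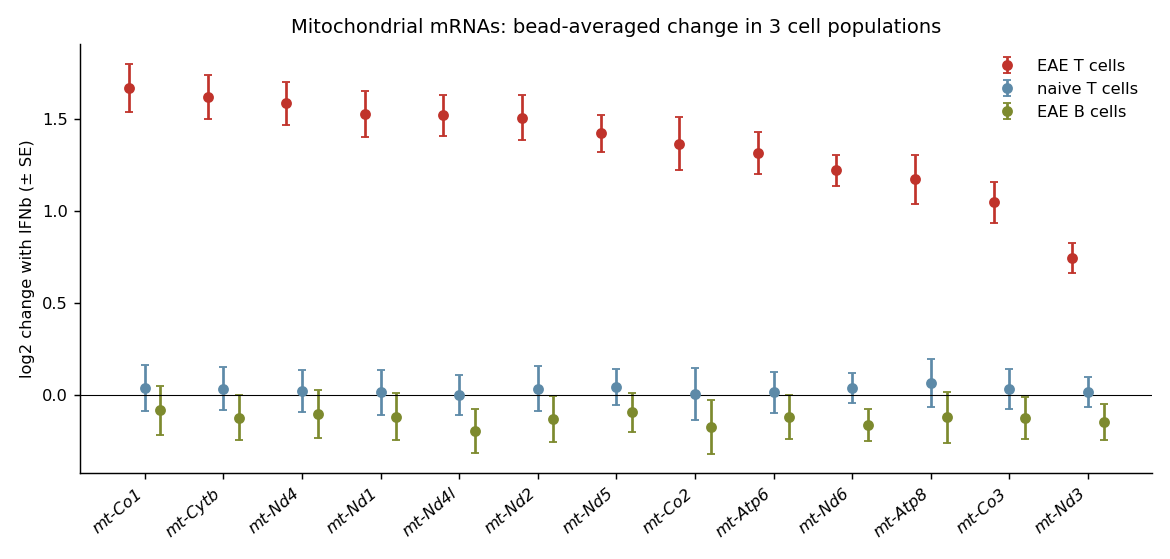
Log2 change with IFNb, bead kinds averaged, of the 13 mitochondrial mRNAs in EAE T, naive T and EAE B cells, with bars for the standard error. Changes in EAE T cells lie above 0 for every gene, while those in naive T cells (-0.00 to 0.06) and EAE B cells (-0.20 to -0.09) lie near 0.

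Markers bore out the label of CD4+ T cells and were similar between groups. Cd4 had 526 to 602 CPM with IFNb and 513 to 696 CPM without, and the sum over 13 CD4 T cell markers was 5287 to 5743 CPM and 5108 to 5823 CPM. Of these markers Trac rose (0.22 ± 0.05, adjusted p = 0.0291, called in 1 of 12 leave-one-out fits) and Cd3d fell (-0.32 ± 0.06, adjusted p = 0.00788, called in 12). Sums over markers of other cells were low: 231 to 504 CPM with IFNb and 214 to 411 CPM without for B cells, 13.2 to 21.3 and 13.7 to 21.2 CPM for CD8 T cells, 21 to 33.7 and 21.5 to 33.8 CPM for NK cells, 38.5 to 113 and 41.1 to 123 CPM for macrophages and monocytes, 36.6 to 46.4 and 35.5 to 49.0 CPM for dendritic cells, and at most 7.97 and 13.6 CPM for neutrophils. Of these lists 12 of 12 B cell, 2 of 2 CD8 T cell, 7 of 7 NK cell, 8 of 12 macrophage, 6 of 9 dendritic cell and 4 of 8 neutrophil markers had enough counts to test. Among them only Itgam, a myeloid integrin, was called (-0.47 ± 0.11, adjusted p = 0.0431, called in 2 of 12 leave-one-out fits). Like Ccl2, Itgam was highest in library number 2 of each arm, at 30.4 and 30.7 CPM with IFNb and 34.9 and 43.8 CPM without. The part of these myeloid transcripts in the Ccl2 result was not tested. Of sex-linked genes, Ddx3y had at most 0.755 CPM and Eif2s3y at most 0.216 CPM in the 12 libraries, here without TMM scaling. Kdm5d had 14.3 to 21.4 CPM and Uty 1.49 to 3.83 CPM, and the sex of the donors was not tested.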

How the data were processed

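RNA of 60 mouse lymphocyte libraries was sequenced, and 12 EAE T cell libraries with anti-CD3 enter the main contrast. Per the labels and the study's methods, the authors ran Salmon against GRCm38 transcripts and deposited estimated counts and TPM per transcript. DESeq2 is also named in the submitters' processing notes, and neither versions nor the strand setting could be taken from the sources used here. The deposited estimated counts were summed per gene (35519 genes; 922 of 116945 transcripts, with 0.425 to 0.677% of counts in EAE T libraries, had no gene), runs of a library were added together and sums rounded. The deposited TPM were used for per-length levels only. edgeR 4.0.16 in R 4.3.3 (TMM, filterByExpr, quasi-likelihood F-test) fitted 5 groups and the replicate number as a block over 15 EAE T libraries. Benjamini-Hochberg adjustment ran over all genes tested, with a threshold of 0.05. Differences between populations used 30 libraries. Members and lists were chosen with earlier results of these data known. Named were the 15 largest changes each way (mean of at least 10 CPM, 6 of 6 pairs), up to 6 members by p of each list, all members of the interferon signaling, Irf, cytokine, lineage factor and inhibitory lists, genes of the population differences, mitochondrial genes, markers, and 6 genes each way in no list. Alternatives were other scalings, mitochondrial genes left out, DESeq2 1.42.0, other filters, no block, 12 libraries alone and leaving out libraries. The test was checked on simulated data in which same-numbered libraries shared no deviation, so that check does not cover the block. Some genes are not reported here. Marker sums over erythroid genes were at most 1.52 CPM with IFNb and 3.51 CPM without.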

Additional observations from a re-analysis of the deposited data

Results flagged for a closer look

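The change with IFNb differed between EAE T cells and other populations, tested as a difference of effects in edgeR. From naive T cells it differed for 200 genes. The largest of the clearest increases were those of Gm20594 (log2 difference 1.84), mt-Co1 (1.64), mt-Cytb (1.59), mt-Nd4 (1.57), mt-Nd4l (1.52), mt-Nd2 (1.48), mt-Nd5 (1.38) and mt-Nd6 (1.19). The clearest decreases were those of the ribosomal protein genes Rps14 (-0.67), Rps21 (-0.65), Rplp1 (-0.61), Rpl36a (-0.59), Rpl41 (-0.54), Rps12 (-0.50) and Rps7 (-0.41). From EAE B cells it differed for 26 genes, with mt-Co1 (1.75), mt-Cytb (1.74), mt-Nd4l (1.71), mt-Nd4 (1.68), mt-Nd1 (1.64), mt-Nd2 (1.63), mt-Nd5 (1.51) and mt-Nd6 (1.38) the clearest. Naive and EAE T cells differ in the immunization of the donors, and anything else that differed between those donors cannot be told apart from it. EAE B and EAE T cells share the immunization. They differ together in cell type, receptor stimulus and the set of transcripts counted, and these parts cannot be told apart.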

How the results depend on the processing

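The 114 higher and 209 lower calls became 76 and 735 with library totals alone (median of all genes -0.07), 223 and 296 with DESeq2, 302 and 357 with no filter on low counts, 179 and 292 in the 12 anti-CD3 libraries alone, 32 and 38 with no replicate block, 32 and 16 without the libraries numbered 1, 41 and 118 without those numbered 2 and 17 and 6 without those numbered 3. Leaving out 1 library gave 54 to 94 higher and 77 to 237 lower. No called gene with a value turned its direction in any alternative. CtrlIg beads (23 calls) gave 8 with mitochondrial genes left out, 118 with DESeq2, 306 with no filter and 12 with no replicate block. Anti-Btla beads (108) gave 268 with library totals, 228 with DESeq2, 413 with no filter, 171 in 12 libraries and 0 with no replicate block, and 0 to 131 with 1 library left out. The difference of bead arms (0) gave 6 with DESeq2, 122 with no filter and 0 to 1 with 1 library left out. The difference from naive T cells (200) gave 536, 392 and 463 with library totals, DESeq2 and no filter, 56 with no replicate block and 119 to 275 with 1 library left out. The difference from EAE B cells (26) gave 91, 112 and 334, and 6 with mitochondrial genes left out. The mitochondrial share differed by 3.86 to 4.78 points with 1 pair left out, each with p = 0.0625, the smallest that 5 pairs allow in the exact permutation test. The cause of these shifts was not tested.

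Same-numbered libraries correlated in their deviations from group means (median r = 0.18, against -0.10 for other numbers). All 15 were closest to their own number, 27 of 30 same-numbered correlations were above 0.1, and the 6 pairs of the IFNb contrast had r of 0.114 to 0.293. Without the block 45 of the 134 named calls were kept. Ignoring mitochondrial ribosomal RNA could not be tried, since no such gene was counted. Genes under about 10 CPM have wide intervals at 9270000 to 19800000 counts.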
